A study of Mus musculus with 6 samples.

Results

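The genes described here are 10 factors known to hold lymphocytes and other cells at rest or to slow their division: the Krüppel-like zinc finger factors Klf2, Klf3, Klf4, Klf6 and Klf13, the anti-proliferative proteins Btg1, Btg2 and Tob1, and the forkhead factors Foxo3 and Foxp1. They were taken by symbol from a written list. The 10 genes are 10 of the 37991 gene identifiers that were counted, and all 10 were among the 16683 genes with enough counts to be tested. RNA-seq was performed on pre-B cells at 3 stages of lymphoma development, with 2 libraries per stage and 6 in all. The methods describe the wild type and premalignant cells as both pro-B and pre-B, and the malignant cells as transformed pre-B.

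The wild type (wt) mice were C57BL/6 animals of the wild type genotype, aged 4 to 6 weeks. The premalignant (prem) mice were heterozygous E{mu}Myc/+ littermates on the same background and of the same age. Malignant (mal) mice carried the same E{mu}Myc/+ genotype and were taken when a spontaneous lymphoma was established, at 10 to 20 weeks, and the methods state that wild type and premalignant mice were all female while malignant mice were of either sex. The malignant stage therefore cannot be told apart from the older age or from the sex of the mice. In this model the immunoglobulin heavy chain enhancer Eμ drives Myc in cells of the B lineage. Cells were sorted by flow cytometry from bone marrow, and polyadenylated RNA was sequenced. The labels give 1 gate for all stages, high for B220 and low for both IgM and IgD, whereas the methods describe the malignant cells as B220+ IgM- IgD-, so a difference of gate cannot be told apart from the malignant stage. Individual animals are named as the biological replicates. Malignant cells of 1 mouse may also descend from few clones.

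Resting lymphocytes keep out of the cell cycle by active means. Klf and Foxo factors bind DNA and turn on cell-cycle inhibitors and homing receptors, and Foxo proteins are driven out of the nucleus when growth factor signals activate the kinase Akt. The Btg and Tob proteins bind the CCR4-NOT complex, which shortens the poly(A) tails of mRNAs and so hastens their decay. In the bone marrow, pre-B cells pass from a dividing phase to a resting phase in which the light chain genes are rearranged, and Foxp1 is known for a part in that step. Several Klf and Btg genes are also rapidly induced by mitogens, stress or the handling of cells.

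Total counts lay between 30031100 and 53453055, with the deeper library of each stage numbered 1, so that depth follows the replicate number and not the stage. Levels are given as CPM, which are counts divided by the library size after TMM normalization, in edgeR's unit, and this normalization takes most genes as unchanged. A level of 3 counts corresponded to at most 0.108 CPM, and the lowest count of any of the 10 genes in any library was 54, of Klf4 in malignant replicate 2. Such limits cover counting error only. Myc lay between 33.8 and 41.4 CPM in wild type and between 1155 and 1732 CPM in the transgenic libraries. Of the 9 pre-B markers looked for, all were present in every library, and their summed level was 6285 and 7108 CPM in wild type, between 3084 and 3104 CPM in premalignant and between 2477 and 2663 CPM in malignant cells. The surrogate light chain genes Vpreb1 and Igll1, which mark early pre-B cells, were low in all transgenic libraries. Vpreb1 was at 115 and 131 CPM in wild type, 9.74 and 4.88 CPM in premalignant and 0.146 and 4.05 CPM in malignant cells, and Igll1 at 197 and 195, 18.8 and 9.58, and 0.167 and 7.56 CPM. Markers of other cells also differed by stage, beside the quiescence factors, and their part in the results below was not tested. The summed NK cell markers were 92.8 and 35.3 CPM in wild type, 4.55 and 1.48 CPM in premalignant and 0.523 and 1.43 CPM in malignant cells. The plasmacytoid dendritic markers were at 267 and 169, 52.5 and 26.0, and 3.28 and 32.6 CPM, and the T cell markers at 65.4 and 37.0, 31.0 and 13.9, and 1.21 and 9.89 CPM. Mature B markers, 3 of 4 being in the data, were at 96.4 and 181 CPM in wild type, 181 and 233 CPM in premalignant and 30.9 and 79.0 CPM in malignant cells. Over all tested genes, 9.19% were at least 2-fold apart in either direction between the wild type replicates. The share was 8.83% between the premalignant and 21.9% between the malignant replicates. Wild type replicate 2 stood apart in its immediate-early and stress genes and in its myeloid and erythroid markers. Of the 23 immediate-early and stress genes tested, 18 were at least 2-fold above wild type replicate 1, with Fos at 0.648 and 620 CPM, Fosb at 0.280 and 351 CPM and Jun at 27.3 and 1179 CPM in replicates 1 and 2. Its summed myeloid markers were 1703 CPM against 776 CPM in replicate 1, and its summed erythroid markers 1075 against 291 CPM. In such bulk libraries, fewer cells of a type and less RNA per cell cannot be told apart.

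The promoter sequences of Klf4, Klf6, Btg1 and Btg2, 4 of the genes whose levels fell in both transgenic stages, are given because they hold the motifs that were found in the windows of the 10 genes. Each is the stretch of 250 bases before the RefSeq gene start, in the sense of the gene, taken from RefSeq's promoter windows of 250 bases before to 50 after the start (build GRCm38.p6). Each matched the NCBIM37 (mm9) genome at 1 place. The capitals mark the motif searched, on both strands: CACGTG, the E-box to which Myc and Max bind, in Klf4 and Klf6, TGTTTAC, a forkhead site, in Btg1, and TGACGTCA, the cyclic AMP response element, in Btg2. On mm9 the stretches lie at chr4:55545348-55545597 (minus strand) for Klf4, chr13:5860485-5860734 (plus) for Klf6, chr10:96079385-96079634 (plus) for Btg1 and chr1:135975733-135975982 (minus) for Btg2. The first 3 end at the annotated gene start, and that of Btg2 ends 35 bases before it.
Klf4: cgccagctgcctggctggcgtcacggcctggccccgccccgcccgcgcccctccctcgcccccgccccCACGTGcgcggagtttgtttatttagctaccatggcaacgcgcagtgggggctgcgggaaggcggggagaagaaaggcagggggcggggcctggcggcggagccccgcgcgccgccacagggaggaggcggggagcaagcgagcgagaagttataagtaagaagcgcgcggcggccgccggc
Klf6: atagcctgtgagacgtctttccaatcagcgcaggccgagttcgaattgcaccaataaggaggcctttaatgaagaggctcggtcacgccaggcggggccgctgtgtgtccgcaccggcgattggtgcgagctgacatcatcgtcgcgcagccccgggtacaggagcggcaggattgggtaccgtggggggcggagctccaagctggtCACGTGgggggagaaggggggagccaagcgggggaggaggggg
Btg1: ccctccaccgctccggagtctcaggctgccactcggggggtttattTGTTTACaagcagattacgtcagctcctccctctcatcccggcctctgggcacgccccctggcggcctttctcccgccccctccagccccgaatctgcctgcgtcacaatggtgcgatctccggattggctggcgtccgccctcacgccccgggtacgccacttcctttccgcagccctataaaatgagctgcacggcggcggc
Btg2: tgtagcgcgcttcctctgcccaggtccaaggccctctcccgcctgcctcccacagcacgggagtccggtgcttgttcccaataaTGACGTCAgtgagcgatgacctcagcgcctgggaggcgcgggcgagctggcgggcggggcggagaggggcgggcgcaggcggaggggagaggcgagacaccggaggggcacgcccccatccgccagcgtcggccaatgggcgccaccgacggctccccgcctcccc

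The E-box starts 182 bases before the start of Klf4 and 43 bases before that of Klf6, the forkhead motif 204 bases before Btg1 and the cyclic AMP response element 166 bases before Btg2. In all 32851 RefSeq windows of the same length, CACGTG was found in 7.15%, TGTTTAC in 3.65% and TGACGTCA in 1.79%. The 10 genes have 12 windows, of which 2 held the E-box and 1 each held the other motifs. The CArG box, at which serum response factor binds, was in 1.63% of all windows and in none of the 12. A match is a run of letters in this window, and binding was not measured here.

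**Figure D1:**
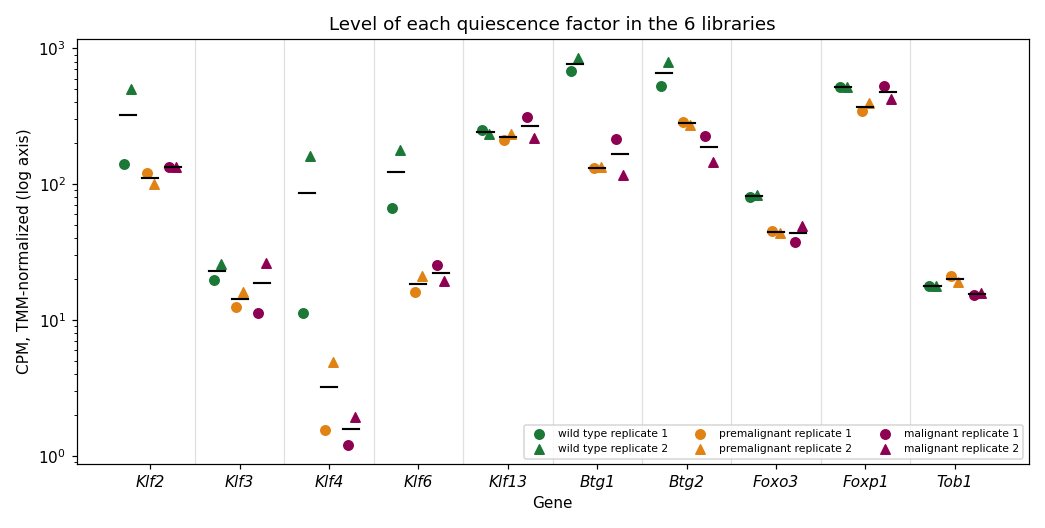
Level of each of the 10 genes in CPM (log axis) in the 6 libraries, with circles for replicate 1, triangles for replicate 2 and a bar at the mean of each stage (n = 2). Klf4, Klf6 and Btg1 lie lower in all 4 transgenic libraries than in both wild type libraries, and the wild type replicates of Klf2, Klf4 and Klf6 lie far apart, with Klf4 at 11.2 and 162 CPM.

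In premalignant cells 6 of the 10 genes were lower than in wild type, namely Klf2, Klf4, Klf6, Btg1, Btg2 and Foxo3, and none was higher. A gene was called where edgeR's quasi-likelihood test gave an FDR no higher than 0.1 and the log2 fold change was 0.5 or more in size, and 20.3% of all tested genes were called lower by this rule. The median log2 fold change was -1.05 for the 10 genes and -0.08 for all tested genes. Both premalignant libraries lay below both wild type libraries for 8 of the 10 genes, against 41.2% of all tested genes. All 4 transgenic libraries lay below both wild type libraries for 6 of the 10 genes, against 31.0% of all tested genes. They were the same 6 genes that were called, and for Klf2 the gap was only 1.04-fold. The count of 6 depended on single libraries, and the count over all tested genes moved with the same libraries. Without wild type replicate 2 the log2 fold change was -0.34 for Klf2, -1.79 for Klf4, -1.84 for Klf6 and -0.90 for Btg2. Without premalignant replicate 1 or replicate 2 it was -1.25 and -1.19 for Btg2, and -0.89 and -0.84 for Foxo3. With all libraries Btg2 was at -1.23 and Foxo3 at -0.87. Klf6 and Btg1 were called whichever of the 6 libraries was left out. With 2 libraries per stage an exact two-sided permutation test of 1 gene cannot give a p below 0.333, so the calls depend on edgeR borrowing the spread from other genes.

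No gene of the 10 was called between malignant and premalignant cells by edgeR, where 6.18% of all tested genes were called in either direction. At an unadjusted p under 0.05 the count was 0 as well, and DESeq2 also called 0. The median log2 fold change was 0.26 for the 10 genes and 0.04 for all tested genes. Without malignant replicate 1, Klf3 was called higher and Btg2 lower, and without malignant replicate 2, Btg1 was called higher. The malignant stage differed from wild type in 5 of the 10 genes, all lower: Klf4, Klf6, Btg1, Btg2 and Foxo3, against 24.3% of all tested genes called lower. Each of these 5 was called whichever library was left out. The median log2 fold change of the 10 genes was -1.09, and that of all tested genes -0.02. Both comparisons with wild type use the same pair of wild type libraries, so their values are given side by side and do not count as 2 separate observations.

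**Figure D2:**
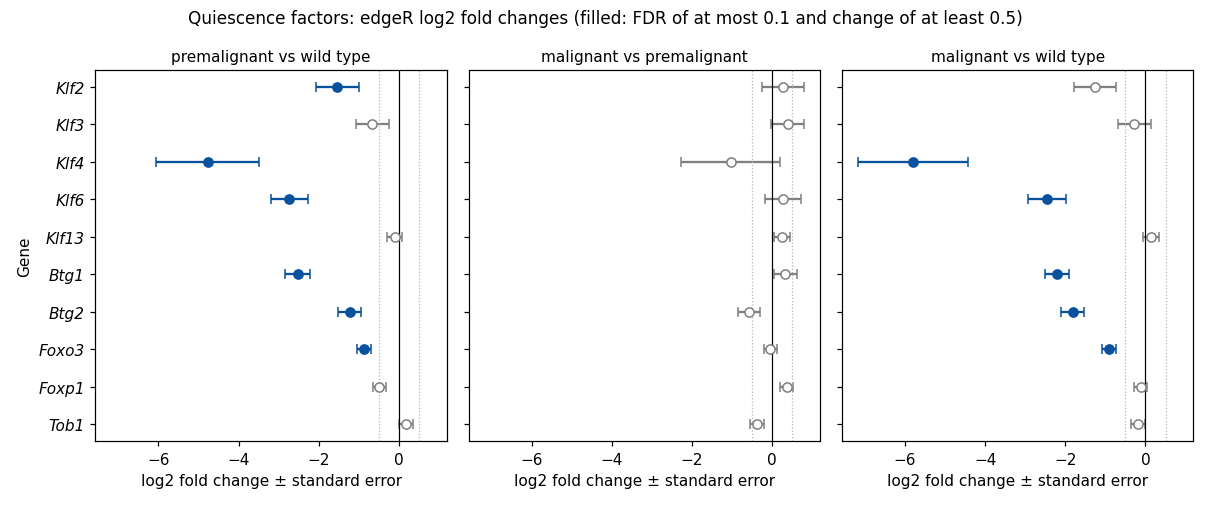
Fold changes of each gene from edgeR on the log2 scale in the 3 comparisons of stages, with bars of 1 standard error (all 6 libraries in the fit). Filled points were called at an FDR of at most 0.1 and an absolute change of at least 0.5 (dotted lines): 6 genes in premalignant vs. wild type, none in malignant vs. premalignant and 5 in malignant vs. wild type.

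Btg1 had one of the steadiest falls among the 10 genes in premalignant vs. wild type. It codes for an adaptor that binds the CCR4-NOT deadenylase and slows proliferation, and lies on chromosome 10 from 96079635 to 96085447 (plus strand, mm9). Its level was 681 and 848 CPM in the wild type libraries, 132 and 133 CPM in the premalignant libraries, and 214 and 118 CPM in the malignant libraries. The stages with and without the transgene did not overlap, and the lowest wild type library was 3.18-fold above the highest transgenic one. Its log2 fold change was -2.53 ± 0.30 (SE) in premalignant vs. wild type (edgeR, adjusted p = 0.00348) and -2.20 ± 0.30 in malignant vs. wild type (adjusted p = 0.00270). As a fold, wild type was 5.77 times the premalignant level. Leaving out each library in turn gave log2 fold changes from -2.67 to -2.36 in premalignant vs. wild type. In malignant vs. wild type the range was wider, from -2.69 to -1.81. Its wild type replicates differed by 1.25-fold.

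Btg2, its close relative and a target of p53, fell less in premalignant cells. It lies on chromosome 1 from 135971747 to 135975697 (minus strand). Its level was 525 and 790 CPM in wild type, 286 and 275 CPM in premalignant and 229 and 146 CPM in malignant cells. Each stage lay below the one before it with no overlap. Against wild type, the log2 fold change was -1.23 ± 0.28 (SE) in premalignant vs. wild type (edgeR, adjusted p = 0.0212) and -1.81 ± 0.28 in malignant vs. wild type (adjusted p = 0.00430). The step from premalignant to malignant, -0.58 ± 0.28, did not pass the test (adjusted p = 0.310), and the call in premalignant vs. wild type was lost without wild type replicate 2 (log2 fold change -0.90, adjusted p = 0.119) and without either premalignant library (adjusted p = 0.128 and 0.145).

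Tob1, the third anti-proliferative gene and a brake on T cell activation, had low and even levels. It lies on chromosome 11 from 94072768 to 94076809 (plus strand). It was at 17.9 and 17.8 CPM in wild type, 21.3 and 19.1 CPM in premalignant and 15.3 and 15.9 CPM in malignant cells. The premalignant libraries were the highest and the malignant libraries the lowest, but none of the 3 comparisons passed the test. In premalignant vs. wild type its log2 fold change was 0.18 ± 0.18 (SE; edgeR, adjusted p = 0.475), so a change of the size seen for Btg1 lies outside 2 standard errors (0.36) of it. In the wild type libraries Btg1 and Btg2 made up 52.2% and 48.7% of the summed CPM of the 10 genes, and in the transgenic libraries between 22.8% and 35.1%.

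Klf6, a zinc finger factor induced by injury and growth signals, lies on chromosome 13 from 5860735 to 5869639 (plus strand). Its level was 66.6 and 179 CPM in wild type, 16.0 and 21.0 CPM in premalignant and 25.2 and 19.4 CPM in malignant cells. The wild type replicates were far apart, yet the lower one was 2.64-fold above the highest transgenic library. Klf6 had a log2 fold change of -2.73 ± 0.47 (SE) in premalignant vs. wild type (edgeR, adjusted p = 0.00965) and of -2.46 ± 0.47 in malignant vs. wild type (adjusted p = 0.00821). Without wild type replicate 2 it remained called, at -1.84 (adjusted p = 0.0341) and -1.57 (adjusted p = 0.0243) in these comparisons.

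Klf4, which restrains division in B cells and many epithelia and is known as a reprogramming factor, had the largest fall and the widest standard error. It lies on chromosome 4 from 55540013 to 55545347 (minus strand). Its level was 11.2 and 162 CPM in wild type, 1.56 and 4.91 CPM in premalignant and 1.21 and 1.94 CPM in malignant cells. The lower wild type library was 2.28-fold above the highest transgenic library, and the other wild type library was far above all. With all libraries, the log2 fold change was -4.77 ± 1.28 (SE) in premalignant vs. wild type (edgeR, adjusted p = 0.0355) and -5.81 ± 1.37 in malignant vs. wild type (adjusted p = 0.0168). Without wild type replicate 2 these were -1.79 (adjusted p = 0.197, no longer called) and -2.84 (adjusted p = 0.0601). Without premalignant replicate 1 or replicate 2 the first was not called either (adjusted p = 0.183 and 0.125). The excess of Klf4 in wild type replicate 2 stood beside higher immediate-early and stress genes, higher levels of all 7 myeloid markers and higher levels of all 4 erythroid markers, none of them at 0 in any library. The summed myeloid markers ranged from 776 to 1703 CPM in wild type, from 232 to 248 CPM in premalignant and from 55.3 to 113 CPM in malignant cells, and the erythroid markers from 291 to 1075, from 59.3 to 137 and from 51.8 to 57.1 CPM. Their part in the Klf4 result was not tested.

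Klf2, the factor best known for keeping T and B cells quiescent and for the homing receptors of lymphocytes, lies on chromosome 8 from 74842932 to 74845555 (plus strand). Its level was 140 and 504 CPM in wild type, 121 and 101 CPM in premalignant and 134 and 134 CPM in malignant cells. All 4 transgenic libraries were close to the lower wild type library, which was 1.04-fold above the highest of them. The log2 fold change of -1.54 ± 0.54 (SE) in premalignant vs. wild type passed the test (edgeR, adjusted p = 0.0730), and that of -1.26 ± 0.53 in malignant vs. wild type did not (adjusted p = 0.102). Without wild type replicate 2 these were -0.34 (adjusted p = 0.255) and -0.06 (adjusted p = 0.811), and without replicate 1 they were -2.18 (adjusted p = 0.0195) and -1.91 (adjusted p = 0.00989). DESeq2 called Klf2 lower in malignant vs. wild type (adjusted p = 0.0305). The call in premalignant vs. wild type was also lost without either premalignant library (adjusted p = 0.219 and 0.287). The immediate-early genes and the myeloid and erythroid markers that moved with wild type replicate 2 apply to Klf2 and Klf6 as to Klf4, and their part was not tested.

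**Figure D3:**
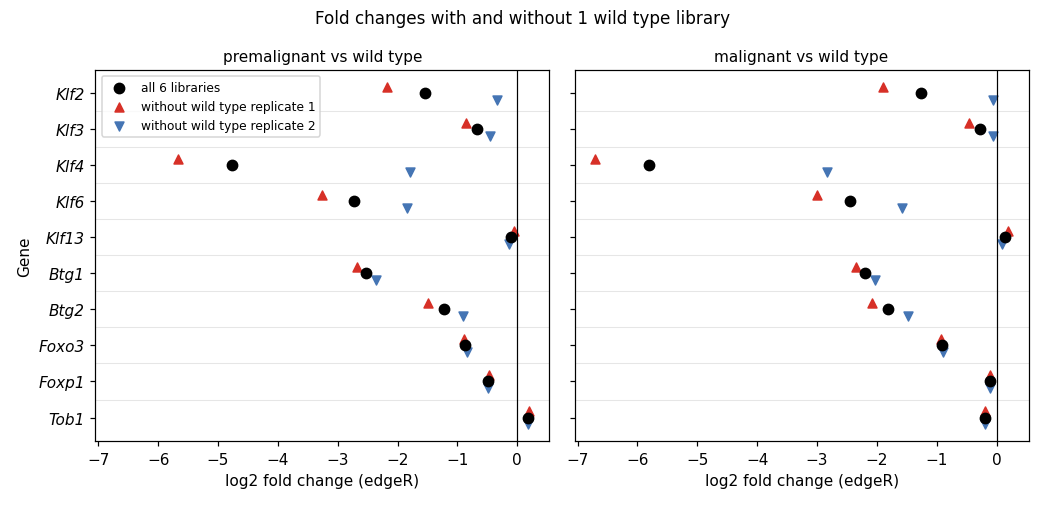
Fold changes against wild type from edgeR on the log2 scale, with all 6 libraries (black), without wild type replicate 1 (red) and without wild type replicate 2 (blue), for premalignant (left) and malignant cells (right). In premalignant vs. wild type, Klf2 moves from -1.54 to -0.34 and Klf4 from -4.77 to -1.79 without wild type replicate 2, while Btg1, Foxo3, Foxp1, Klf13 and Tob1 stay close to their values.

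Klf3, a repressor that recruits CtBP, and Klf13, a regulator of chemokine genes in T cells, were not called in any comparison. Klf3 (chromosome 5, 65194628 to 65221368, plus strand) was at 19.6 and 26.0 CPM in wild type, 12.6 and 16.2 CPM in premalignant and 11.3 and 26.4 CPM in malignant cells. Its malignant replicates differed by 2.34-fold and spanned the other stages. The log2 fold change was -0.67 ± 0.41 (SE) in premalignant vs. wild type (edgeR, adjusted p = 0.258), with the premalignant libraries below both wild type libraries. It was called without malignant replicate 1 (adjusted p = 0.0330) or malignant replicate 2 (adjusted p = 0.0439). Klf13 (chromosome 7, 71031237 to 71083801, minus strand) was at 249 and 235 CPM in wild type, 213 and 236 CPM in premalignant and 314 and 219 CPM in malignant cells. These stages overlapped, and its log2 fold changes were -0.11 ± 0.19 (SE; edgeR, adjusted p = 0.707) in premalignant vs. wild type and 0.14 ± 0.19 (adjusted p = 0.599) in malignant vs. wild type. The latter was -0.026 with upper-quartile normalization, so no direction is given for Klf13.

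Foxo3, a forkhead factor that raises cell-cycle inhibitors and death genes when Akt is inactive, fell by a modest and even amount. It lies on chromosome 10 from 41901647 to 41996561 (minus strand). It was at 80.5 and 82.9 CPM in wild type, 45.5 and 43.9 CPM in premalignant and 37.8 and 49.1 CPM in malignant cells. The lowest wild type library was 1.64-fold above the highest transgenic library, and the transgenic stages overlapped. The log2 fold change was -0.87 ± 0.17 (SE) in premalignant vs. wild type (edgeR, adjusted p = 0.0127) and -0.91 ± 0.17 in malignant vs. wild type (adjusted p = 0.00711). Leaving out either wild type library kept both calls. Without premalignant replicate 1 or replicate 2 the first was not called (adjusted p = 0.106 and 0.127), with log2 fold changes of -0.89 and -0.84.

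Foxp1, which takes part in early B cell development and in T cell quiescence, lies on chromosome 6 from 98875332 to 99216526 (minus strand), where it overlaps Eif4e3 on the same strand, so reads in the shared part cannot be assigned with certainty. It was at 519 and 517 CPM in wild type, 343 and 397 CPM in premalignant and 529 and 426 CPM in malignant cells. The premalignant libraries were the lowest and did not overlap the others. The log2 fold change of -0.49 ± 0.16 (SE) in premalignant vs. wild type had an adjusted p of 0.0668 (edgeR) and was below the minimum change of 0.5, and it was -0.57 with upper-quartile normalization, where Foxp1 was called. In malignant vs. wild type it was -0.12 ± 0.16 (adjusted p = 0.604).

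The share of the change that was present before malignancy can be read from the same values. For the 5 genes called in malignant vs. wild type, the log2 fold change in premalignant cells amounted to 115% of that in malignant cells for Btg1, 111% for Klf6, 95.4% for Foxo3, 82.1% for Klf4 and 67.9% for Btg2. These shares use the same wild type libraries above and below the line and have no test. Those of Klf4 and Btg2 also moved with wild type replicate 2. Without it the log2 fold changes in premalignant and malignant cells were -1.79 and -2.84 for Klf4, and -0.90 and -1.49 for Btg2. For Btg1 and Foxo3, the stage with the larger change depended on the malignant library left out. Without malignant replicate 1 the same values were -2.52 and -2.69 for Btg1, and -0.86 and -0.73 for Foxo3. Without malignant replicate 2 they were -2.47 and -1.81 for Btg1, and -0.81 and -1.09 for Foxo3. The summed level of the 10 genes was 2310 and 3362 CPM in wild type, 1193 and 1247 CPM in premalignant and 1511 and 1156 CPM in malignant cells.

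Per kilobase of exon, the order of the genes also changed. In wild type, Btg2 was highest at 240 ± 68.3 RPKM (SD, n = 2), computed from CPM and the union of annotated exons, followed by Klf2 at 174 ± 139 and Btg1 at 153 ± 23.6 RPKM. The range of Klf2 overlapped both of its neighbours. Foxp1 (43.4 RPKM) and Klf13 (36.7 RPKM) came next, then Klf6 and Klf4 at 29.1 ± 18.8 and 28.4 ± 34.9 RPKM, which overlapped each other and Klf13, and Foxo3 (11.3 RPKM), Klf3 (8.74 RPKM) and Tob1 (7.79 RPKM) were lowest. Klf3 and Tob1 did not differ beyond their spread, and the range of Klf4, from 3.67 to 53.1 RPKM, covered those of Foxp1, Klf13, Foxo3, Klf3 and Tob1. In premalignant cells Btg2 (102 RPKM) and Klf2 (60.0 RPKM) led, Klf13 (34.1 RPKM) and Foxp1 (31.0 RPKM) overlapped, and Btg1 followed at 26.4 RPKM. Tob1 (8.82 RPKM) was then above Foxo3 (6.20 RPKM), Klf3 (5.50 RPKM) and Klf6 (4.39 RPKM), of which Klf3 overlapped both neighbours, and Klf4 was lowest at 1.06 RPKM. In malignant cells Klf2 (72.7 RPKM) and Btg2 (68.3 RPKM) overlapped at the top, Klf13 (40.4 RPKM), Foxp1 (40.0 RPKM) and Btg1 (33.1 RPKM) overlapped below them, and Klf3, Tob1, Foxo3 and Klf6 lay between 5.30 and 7.21 RPKM with overlapping ranges, save that Klf6 stayed below Tob1. Klf4 was lowest at 0.514 RPKM. Foxp1 has many transcripts, and on the length of its longest transcript it was at 73.8, 52.8 and 68.1 RPKM in the 3 stages.

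The wild type replicates differed most in 3 of the 10 genes. Replicate 2 was 14.5-fold above replicate 1 for Klf4, 3.59-fold for Klf2 and 2.69-fold for Klf6, and 6.35% of all tested genes were at least 2-fold higher in replicate 2. Only 0.917% of tested genes were as far above replicate 1 as Klf4, 2.23% as far as Klf2 and 3.75% as far as Klf6. The other ratios of replicate 2 to replicate 1 were 1.50 for Btg2, 1.32 for Klf3 and 1.25 for Btg1, and lay between 0.942 and 1.03 for Klf13, Foxo3, Foxp1 and Tob1. These are differences between single libraries, with no test. With 3 other scalings the log2 ratio of Klf4 lay between 3.84 and 3.89 and that of Klf2 between 1.83 and 1.88.

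Many other genes moved with these 3, and most of the immediate-early and stress genes were among them. The median log2 ratio of replicate 2 to replicate 1 over the 23 tested genes of that list was 2.50, with Fosb and Fos at 1252-fold and 956-fold, Jun at 43.1-fold, Hspa1b, a heat shock protein, at 36.1-fold, Atf3 at 22.1-fold and Rhob at 15.2-fold. The 10 proliferation genes went the other way, with a median log2 ratio of -0.58 and none 2-fold apart. All 7 myeloid, all 4 erythroid and all 3 mature B markers were higher in replicate 2, while the summed markers of T cells, NK cells and plasmacytoid dendritic cells were lower there. The part of these differences in those of Klf2, Klf4 and Klf6 was not tested. Between the premalignant replicates Klf4 was the 1 gene of the 10 that was at least 2-fold higher in replicate 2 (3.14-fold). There, 5 of the 23 immediate-early genes were as well, against 4.32% of all tested genes. Between the malignant replicates it was Klf3 (2.34-fold), against 12.9% of all tested genes.

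**Figure D4:**
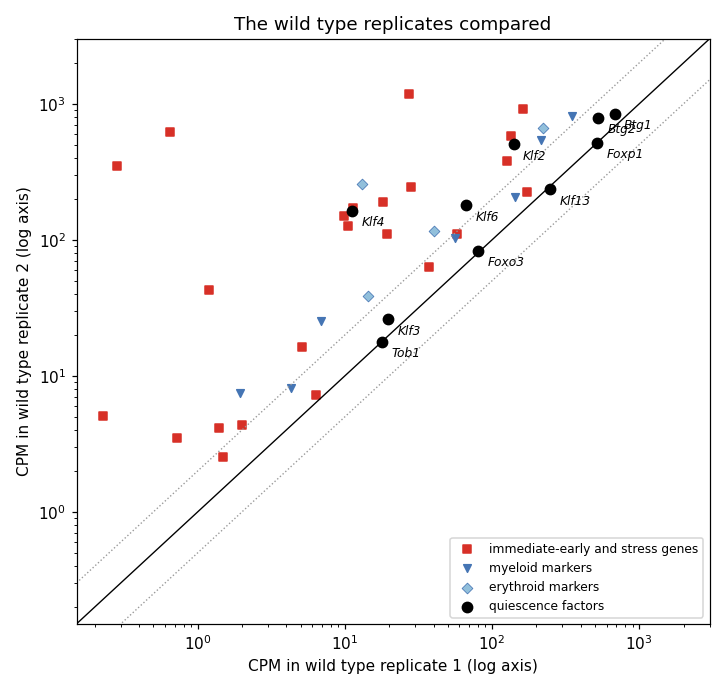
CPM in wild type replicate 2 against CPM in wild type replicate 1 (log axes), for the 10 quiescence factors (black), immediate-early and stress genes (red squares), myeloid markers (triangles) and erythroid markers (diamonds), with the line of equal levels and dotted lines at 2-fold. Klf4, Klf2 and Klf6 lie above the 2-fold line among the immediate-early genes, while Foxo3, Foxp1, Klf13 and Tob1 lie on the line of equal levels.

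The genes whose 6 values were most like those of a member were found by the root mean square difference of log2(CPM + 1), centred per gene, over 6 libraries and 16620 genes with a symbol. For Klf4 they were Dusp1, an immediate-early phosphatase (difference 0.696), and Alas2, an erythroid enzyme (0.738). Dusp1 was at 9.87 and 150 CPM in wild type, 5.85 and 8.25 CPM in premalignant and 3.33 and 1.00 CPM in malignant cells. For Btg1 they were H2-Q4, a class I histocompatibility gene with close copies whose reads may be shared (0.134), and Nfkb2, a subunit of NF-κB (0.138). Nfkb2 was at 85.1 and 110 CPM in wild type, 16.0 and 15.1 CPM in premalignant and 20.5 and 12.0 CPM in malignant cells. For Klf6 they were a V gene of the immunoglobulin kappa light chain (0.211) and H2-K2 (0.243), which also belong to families of close copies, for Btg2 Pitpnm1 (0.0961), and for Klf2 Vasn (0.172) and Gm11428 (0.205). Foxo3 was nearest to Dnase1l1 and Mras, Foxp1 to Sptlc2 and Zfp362, Klf13 to Exoc6 and Manbal, Klf3 to Gm9770 and 9930111J21Rik1, and Tob1 to Apex2 and Bex1. Genes of low level lie near an even member partly through the added 1. Among the 10 genes themselves, Klf6 and Btg1 were each other's nearest (0.362), and 34 genes were nearer to Klf6 and 89 nearer to Btg1 than that.

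Relatives of these factors moved unevenly. For the counts that follow, 19% of all tested genes were called higher and 20.3% lower in premalignant vs. wild type. In malignant vs. wild type 24.9% were called higher and 24.3% lower, and in malignant vs. premalignant 6.18% in either direction. Of the other Klf genes, 9 of 12 were tested, and 2 were higher and 2 lower in premalignant vs. wild type, with a median log2 fold change of 0.19. Klf1, an erythroid factor (log2 fold change -2.46), and Klf7 (-1.55) were lower, while Klf9 (2.09) and Klf16 (1.23) were higher. In malignant vs. wild type 3 were higher and 2 lower, and between malignant and premalignant cells edgeR called 0. Of the other Btg and Tob genes and subunits of CCR4-NOT, 9 of 10 were tested, and none was called in premalignant vs. wild type or in malignant vs. premalignant. The malignant stage had Btg3 higher (log2 fold change 0.69) and Cnot6l, a deadenylase subunit, lower (-0.53) than wild type. The scaffold Cnot1 was at 489 and 431 CPM in wild type, 602 and 665 CPM in premalignant and 475 and 470.5 CPM in malignant cells.

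Of the other Foxo and Foxp genes, all 6 were tested, with 1 higher and 2 lower in both comparisons with wild type and 0 called by edgeR between malignant and premalignant cells. The gene called higher was the same in both and lay below 1 CPM in every library. Foxo1, the main Foxo factor of early B cells and an activator of Rag1, Rag2 and Il7r, was at 311 and 289 CPM in wild type, 84.2 and 79.6 CPM in premalignant and 76.9 and 87.7 CPM in malignant cells. For premalignant vs. wild type the log2 fold change was -1.87 ± 0.14 (SE; edgeR, adjusted p = 0.00159), for malignant vs. wild type it was -1.86 ± 0.14 (adjusted p = 0.000640), and replicate 2 was 0.930 times replicate 1 in wild type. Foxo4 was lower as well, with log2 fold changes of -0.76 and -1.08. The same values of Foxo3 were -0.87 and -0.91, and the difference between the genes was not tested.

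The target genes and cell-cycle brakes of the Foxo and Klf2 factors were all tested (14 of 14). In premalignant vs. wild type 9 were lower and none higher, where 20.3% of all tested genes were lower, with a median log2 fold change of -0.74 against -0.08 for all tested genes. The largest falls were of Bcl6, a repressor that protects resting pre-B cells (-3.02), Il7r, the receptor chain for interleukin 7 (-2.38), Irs2, an adaptor of insulin signalling (-2.15), and Txnip, an inhibitor of thioredoxin and glucose uptake (-1.54). The malignant stage had 8 lower and 1 higher than wild type, where 24.3% of all tested genes were lower. Il7r went on to fall from premalignant to malignant cells (log2 fold change -1.27, edgeR, adjusted p = 0.0608), as did Ccng2, an atypical cyclin that slows the cycle (-1.58, adjusted p = 0.0165), while Txnip (0.85, adjusted p = 0.0721) and the homing integrin Itgb7 (2.84, adjusted p = 0.0678) rose. The homing receptors S1pr1 and Ccr7, known as Klf2 targets, were not called in any comparison. S1pr1 was at 63.0 and 137 CPM in wild type, 52.5 and 72.7 CPM in premalignant and 97.7 and 162 CPM in malignant cells. Its wild type libraries overlapped both other stages, while both malignant libraries lay above both premalignant libraries. For Ccr7, both premalignant libraries lay below all wild type and malignant libraries, and the latter stages overlapped.

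Other genes of lymphocyte quiescence were tested in 5 of 5 cases, with 3 lower in premalignant vs. wild type, 1 lower in malignant vs. premalignant and 2 lower in malignant vs. wild type. Slfn2, whose loss breaks T cell quiescence, had log2 fold changes of -1.99 and -2.26 in premalignant and malignant vs. wild type. Bach2, a repressor that guards the pre-B cell checkpoint, was at 1085 and 1071 CPM in wild type, 470 and 442 CPM in premalignant and 232 and 154 CPM in malignant cells, and fell at both steps (log2 fold change -1.24 each time, edgeR, adjusted p = 0.00957 and 0.0456). Dtx1, an antagonist of Notch signalling, was lower in premalignant cells (-0.95) and at -0.02 in malignant vs. wild type. Of the proliferation genes, 7 of 10 were higher in premalignant and 4 of 10 in malignant cells than in wild type, against 19% and 24.9% of all tested genes, led by Mcm5 (1.11 and 0.90) and Mcm2 (1.05 and 1.17), which code for parts of the replicative helicase. Of the immediate-early and stress genes, 17 of 23 were lower in premalignant and 13 of 23 in malignant cells than in wild type. Egr3 was higher in malignant than in premalignant cells (log2 fold change 3.48), but at low levels. It was at 0.076 and 0.181 CPM in premalignant and 1.61 and 1.18 CPM in malignant cells. As given above, 18 of these 23 genes were at least 2-fold higher in wild type replicate 2 than in replicate 1. The 10 proliferation genes had a median log2 ratio of -0.58 between wild type replicates 2 and 1, so they were mostly lower in replicate 2.

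**Figure D5:**
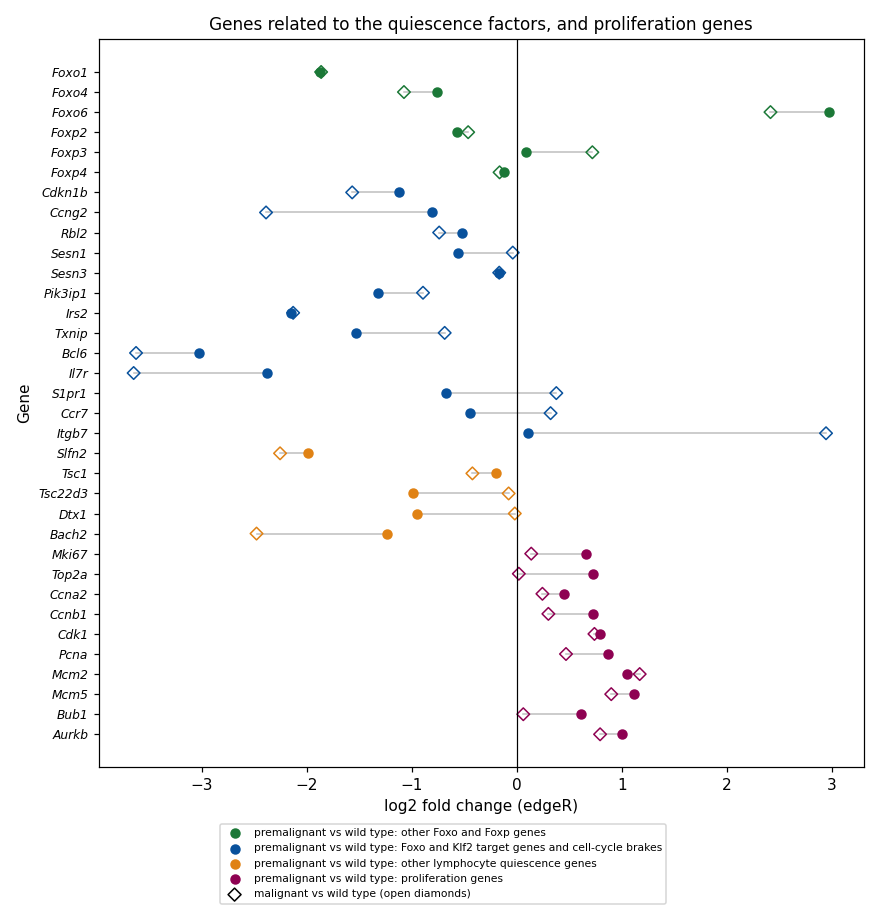
Fold changes against wild type from edgeR on the log2 scale for the reported genes of 4 lists, with filled circles for premalignant and open diamonds for malignant cells (n = 2 libraries per stage). Foxo1 lies at -1.87 and -1.86, Bcl6, Il7r, Slfn2 and Bach2 lie below -1 in both, and Mcm2 and Mcm5 lie near or above 0.90 in both.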

How the data were processed

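RNA-seq counts of 6 libraries were used, 2 for each stage, and stages and replicate numbers come from the labels. The authors aligned reads of 50 bases with TopHat v2.0.8b, counted them per gene with HTSeq and deposited raw counts without normalization. The submitters' processing notes name the build mm9, CASAVA 1.8.2, Bowtie, HTSeq and DESeq. The options of HTSeq and its gene annotation are not given in the sources used here. The authors' tables of fold changes and p-values from DESeq were not used.

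Symbols, coordinates and exon lengths come from GENCODE vM1 on NCBIM37, which named 37205 of the 37991 identifiers, and a symbol with several identifiers was given the one with the most counts. Promoters are RefSeq windows on GRCm38.p6, with all 10 members found. The members and gene lists were chosen with earlier results of these data known. The members are all named. From each list the text names up to 4 called genes per comparison with the largest change and at least 1 CPM, and up to 6 immediate-early genes with the largest ratio between the wild type replicates. Cnot1, S1pr1, Ccr7, Vpreb1 and Igll1 fall outside this rule and were named after their values were seen. Values of 2 further genes are not reported here.

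Counts were filtered with filterByExpr and TMM-normalized, and edgeR 4.0.16 (R 4.3.3) was fitted to all 6 libraries (glmQLFit, glmQLFTest) with Benjamini-Hochberg adjustment over all 16683 tested genes. Standard errors (SE) are the size of the log2 fold change divided by the square root of F. Tables were made in Python 3.11.15. Alternatives were DESeq2 1.42.0, upper-quartile normalization, no filter, at least 10 counts in every library, an FDR of 0.05, no minimum fold change, a minimum log2 fold change of 1, the replicate number as a block, only the stages compared, each library left out, and RPKM on the longest transcript. Same-numbered libraries share nothing but a number in the labels, and their deviations correlated at 0.376 (wild type and premalignant), 0.0220 (wild type and malignant) and 0.0895 (premalignant and malignant).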

Additional observations from a re-analysis of the deposited data

How the results depend on the processing

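The count of quiescence factors called lower in premalignant vs. wild type stayed between 5 and 7 of 10 under the other filters, normalizations, thresholds and tools, and leaving out each library in turn gave from 2 to 7, with the lowest values without a premalignant library. In malignant vs. wild type it lay between 4 and 6 under all alternatives. In malignant vs. premalignant it was 0 apart from 2 with no filter on low counts (Klf4 and Btg2, lower) and 0 to 2 with a library left out. Over all genes, 6563 were called in premalignant vs. wild type (3169 higher and 3394 lower), 4282 at a minimum log2 fold change of 1, and from 2094 to 8455 with a library left out. In malignant vs. premalignant 1031 genes were called (623 higher and 408 lower, or 487 and 492 with upper-quartile normalization), 407 at an FDR of 0.05, 2169 with DESeq2, 2810 with no filter, 258 with only the stages compared, and from 0 to 3805 with a library left out. In malignant vs. wild type 8212 were called. With upper-quartile normalization the median of all genes shifted by -0.08, -0.08 and -0.17 in premalignant vs. wild type, malignant vs. premalignant and malignant vs. wild type, and gave 2812 higher and 3802 lower, and 3456 higher and 4746 lower, in the comparisons with wild type, where TMM gave 4153 and 4059 in the second. The cause was not tested.

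Signs turned for genes that were not called. With a library left out, the log2 fold changes in malignant vs. premalignant ran from -0.38 (without malignant replicate 2) to 0.88 (without malignant replicate 1) for Klf3, from -0.037 (without malignant replicate 1) to 0.45 for Klf13, from -0.17 (without malignant replicate 1) to 0.66 for Btg1 and from -0.28 to 0.13 (without malignant replicate 1) for Foxo3. In malignant vs. wild type they ran from -0.99 to 0.22 (without malignant replicate 1) for Klf3, from -0.13 (without malignant replicate 1) to 0.40 for Klf13 and from -0.27 to 0.056 (without malignant replicate 2) for Foxp1. Klf13 was at -0.026 there with upper-quartile normalization.

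With the replicate number as a block, 6575, 940 and 8224 genes were called in premalignant vs. wild type, malignant vs. premalignant and malignant vs. wild type, and 6, 0 and 5 quiescence factors. The block changed no call of a member. With 2 libraries per stage, a fit that leaves 1 out takes the lone library to vary like the other stages.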
